A study of Mus musculus with 6 samples.

Results

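*Pnpla2*, *Lipe*, *Plin4* and *Plin5* encode lipases and lipid droplet proteins of the fat cell, and their transcripts were compared between adipocyte cultures with and without the compound NJT‐2. The 4 genes were taken by their gene names from the deposited expression table, in which they are 4 of the 4864 genes analysed, each with 1 entry. *Pnpla2* codes for adipose triglyceride lipase, which takes the first fatty acid from stored triglyceride. *Lipe* codes for hormone-sensitive lipase, which cleaves the diglyceride that results. *Plin4* and *Plin5* code for perilipins, proteins that sit on the surface of the droplet.

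Stored fat lies in lipid droplets, and lipolysis releases it as fatty acids and glycerol. In adipocytes, catecholamines raise cyclic AMP, protein kinase A phosphorylates droplet proteins and hormone-sensitive lipase, and the lipases then reach the triglyceride core. Perilipins control this access. Perilipin 4 coats small, newly formed droplets, and perilipin 5 is best known from tissues that burn fatty acids, such as heart, oxidative muscle and brown fat, where it holds droplets beside mitochondria. Lipases and perilipins of the adipocyte are among the known targets of peroxisome proliferator-activated receptors (PPARs), which was not tested in these libraries.

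The libraries were made from adipose-derived stem cells (ADSCs), the precursors of fat cells, taken from the subcutaneous fat of male, wild-type C57BL/6J mice. The medium of this cell model, shared by both groups, held dexamethasone, insulin, isobutylmethylxanthine, indomethacin and triiodothyronine, with harvest on differentiation day 8. The Control group (3 libraries) had vehicle, and the NJT-2 group (3 libraries) had NJT‐2, the natural product saikosaponin A. The dose used in this cell model was 200 nM, and neither a dose nor the time of exposure is stated separately for the sequenced cultures. The question behind the comparison is what NJT‐2 does to the transcripts of adipocytes. The labels do not say whether libraries of a group came from separate animals or cultures, so p-values measure the spread between these libraries, which may be technical. No library carries a gene deletion or transgene.

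The level of a gene is given as FPKM, the read count divided by gene length and library total, as deposited. Reads counted on the analysed genes ranged from 16093037 to 28929673 per library, which is 27.7% to 32.5% of the library totals that the FPKM columns imply. Of the 8 adipocyte markers in the table, summed FPKM ran from 65.6 to 82.7 in Control and from 354.1 to 1304 in NJT-2, and none was at 0 in all libraries. Control replicate 1 stood apart in fibroblast markers, with a summed FPKM of 227.9 where the highest Control library had 999.9. Its difference was not confined to them. It had the fewest counted reads and reads on 4100 of the analysed genes, where Control replicates 2 and 3 had 4490 and 4504. The signalling gene *Gnai3*, for example, had 4.97 FPKM there against 31.49 and 41.19. In bulk RNA, fewer cells of a type and less RNA per cell cannot be told apart.

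The 4 genes lie at 3 places in the genome (build GRCm38). *Pnpla2* (ENSMUSG00000025509) spans chr7:141455198-141460743 on the plus strand, with 11 merged exon blocks and 3020 bp of exon in GENCODE M21. *Lipe* (ENSMUSG00000003123) spans chr7:25379527-25398710 on the minus strand, with 14 exon blocks and 5886 bp of exon. *Plin4* (ENSMUSG00000002831, chr17:56100591-56109803) and *Plin5* (ENSMUSG00000011305, chr17:56111601-56117596) are neighbours on the minus strand, with 9 exon blocks each, 1797 bp apart and with 0 annotated genes between them. *Plin5* is the upstream of this pair. The length that the deposited *Plin4* values imply is 6349 bp where GENCODE M21 gives 5777 bp, so its FPKM was set with a longer model than that of M21.

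The bases just upstream of an annotated transcript start of each gene are shown because the 4 transcripts were higher in every NJT-2 library. The windows let known promoter words be set side by side. RefSeq promoter windows (GRCm38.p6) were found for all 4 genes, and 1 is given per gene as the 250 bases before the start, 5′ to 3′ on the strand of the gene. The windows are chr7:141454938-141455187 for *Pnpla2* (plus), chr7:25390113-25390362 for *Lipe* (minus), chr17:56109783-56110032 for *Plin4* (minus) and chr17:56117549-56117798 for *Plin5* (minus). The *Lipe* window lies inside the span of the gene, so it precedes an internal start and not the outermost one. Of the *Lipe*, *Plin4* and *Plin5* windows, 11, 21 and 48 bases lie in a GENCODE exon of the gene itself, and those of *Pnpla2* lie in no exon. Capitals mark AGGTCA and, apart from it, the words CCAAT (which reads as ATTGG when it lies on the other strand) and TATAAG.

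Pnpla2: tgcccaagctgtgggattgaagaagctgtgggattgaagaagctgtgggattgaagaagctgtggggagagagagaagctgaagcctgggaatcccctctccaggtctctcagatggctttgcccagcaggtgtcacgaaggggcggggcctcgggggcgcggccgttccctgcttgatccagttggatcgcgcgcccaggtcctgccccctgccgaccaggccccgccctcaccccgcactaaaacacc
Lipe: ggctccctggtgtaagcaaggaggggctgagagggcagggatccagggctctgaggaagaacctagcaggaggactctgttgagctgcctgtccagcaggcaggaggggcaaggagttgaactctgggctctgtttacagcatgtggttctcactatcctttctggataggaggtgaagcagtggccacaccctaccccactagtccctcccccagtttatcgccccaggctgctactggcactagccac
Plin4: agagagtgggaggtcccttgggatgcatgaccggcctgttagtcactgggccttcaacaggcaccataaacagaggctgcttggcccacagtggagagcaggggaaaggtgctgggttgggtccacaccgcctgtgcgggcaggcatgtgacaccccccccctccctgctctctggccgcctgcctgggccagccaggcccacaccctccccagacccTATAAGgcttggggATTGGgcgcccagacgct
Plin5: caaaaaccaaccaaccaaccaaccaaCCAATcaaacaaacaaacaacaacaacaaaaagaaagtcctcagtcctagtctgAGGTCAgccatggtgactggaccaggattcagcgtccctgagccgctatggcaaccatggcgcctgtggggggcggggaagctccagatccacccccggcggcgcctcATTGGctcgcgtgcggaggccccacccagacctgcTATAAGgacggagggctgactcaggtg

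The letters searched on both strands were AGGTCA, the core word of nuclear receptor sites, a direct repeat of it with 1 base between (DR1, the arrangement that PPAR and RXR bind), the E-box CACGTG, the promoter word TATAAA and the CCAAT box. The word TATAAG was added after the sequences had been seen. The *Plin4* window holds TATAAG at positions -32 to -27 from the start and CCAAT on the minus strand at -18 to -14. The *Plin5* window holds TATAAG at -27 to -22, AGGTCA at -170 to -165, and CCAAT at -224 to -220 and on the minus strand at -62 to -58. The *Pnpla2* and *Lipe* windows shown hold none of these letters. Both perilipin windows thus carry TATAAG close to the start. At any position and on either strand, 7.43% of the 32851 RefSeq windows of 300 bases hold this word. That share is no test of the match, since the word was picked from these sequences.

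None of the 6 windows of the 4 genes held a DR1 with at most 2 of its 12 letters different, a word that 3.86% of all windows hold. AGGTCA was found in 16.3% of all windows, CCAAT in 37.4%, TATAAA in 13.6% and CACGTG in 7.15%. A second *Lipe* window, which lies wholly within an annotated *Lipe* exon and is not printed, held CACGTG at -155 to -150. A second *Plin5* window, with its 250 bases before the start at chr17:56117299-56117548, is also not printed. It held AGGTCA at 13 to 18 after the start, outside those 250 bases. A match of letters is a description and no evidence of binding, and its absence speaks only for these windows.

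*Pnpla2*, the lipase of the first step, had the highest level of the 4 genes in every library. Its FPKM was 18.95, 15.73 and 14.11 in Control replicates 1 to 3 and 459.09, 118.94 and 364.52 in NJT-2 replicates 1 to 3. The groups did not overlap, and the lowest NJT-2 library stood 6.28-fold above the highest Control library. The mean rose from 16.3 ± 2.46 to 314.2 ± 175.6 FPKM (SD, n = 3 each). In edgeR's quasi-likelihood test over 3705 genes, the log2 fold change was 3.99 (SE 0.61), a fold of 15.9, with a Benjamini-Hochberg adjusted p of 0.0408.

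*Lipe*, the lipase of the second step, followed at a lower level. Its FPKM was 2.88, 2.16 and 2.2 in Control and 85.58, 17.2 and 65.02 in NJT-2. Every NJT-2 library was above every Control library, by 5.97-fold at the least, and replicate 2 was again the low one of its group. The mean rose from 2.41 ± 0.405 to 55.9 ± 35.1 FPKM (SD, n = 3 each), and edgeR gave a log2 fold change of 4.25 (SE 0.67), a fold of 19, with an adjusted p of 0.0432. The whole *Lipe* locus of 19184 bp lies inside an annotated antisense gene, 4732471J01Rik, which is not among the genes analysed. Whether strand was used in counting is not given in the sources used here, and without it reads of the antisense gene would count to *Lipe*.

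*Plin4*, the coat of small droplets, was close to *Lipe* in Control and further below it in NJT-2. Its FPKM was 1.92, 1.59 and 1.89 in Control and 25.83, 8.17 and 22.38 in NJT-2. The groups did not overlap, with 4.26-fold between the nearest libraries. The mean went from 1.80 ± 0.183 to 18.8 ± 9.36 FPKM (SD, n = 3 each), and the log2 fold change was 3.13 (SE 0.51), a fold of 8.78, with an adjusted p of 0.047 in edgeR. At its 3′ end *Plin4* overlaps the gene *Hdgfl2* on the opposite strand by 17 bp. *Hdgfl2* had a mean FPKM of 17.4 in Control and 9.96 in NJT-2 (log2 fold change -1.13, edgeR adjusted p = 0.287).

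*Plin5*, the coat known from oxidative tissue, was near the limit of detection without NJT‐2. It had 0, 7 and 8 reads in Control and 188, 80 and 182 reads in NJT-2, which is 0, 0.04 and 0.05 FPKM against 1.27, 0.54 and 1.25 FPKM. The Control library with 0 reads allows a level of up to 0.0247 FPKM at a limit of 3 reads, which covers counting error only. The groups did not overlap, and the nearest libraries were 10.2-fold apart by FPKM recomputed from the counts. The log2 fold change was 4.95 (SE 1.05), and with an edgeR adjusted p of 0.1 it did not pass the test. DESeq2 gave 5.02 with an adjusted p of 0.000284. *Plin5* passed the filter on low values (a mean of at least 0.5 FPKM over the 6 libraries) only through the NJT-2 libraries.

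**Figure D1:**
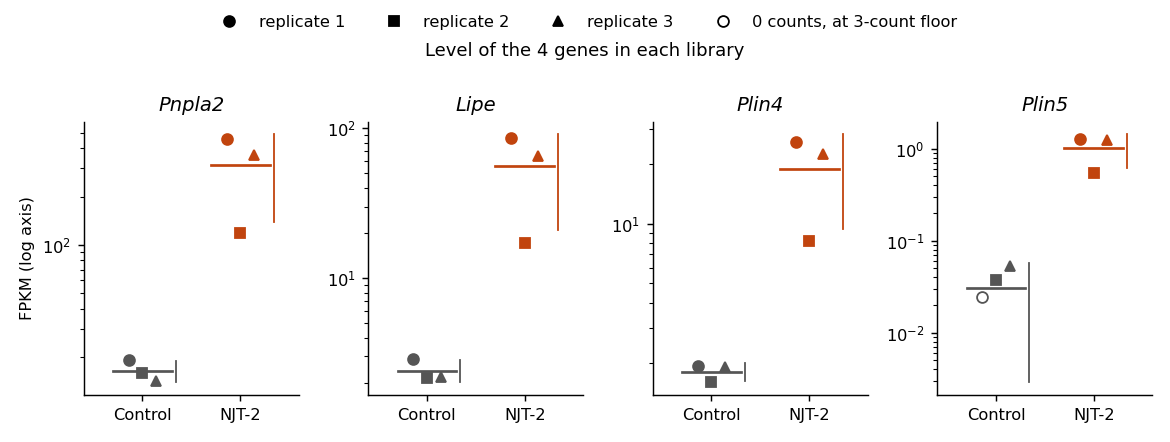
FPKM (log axis, a separate scale per panel) of *Pnpla2*, *Lipe*, *Plin4* and *Plin5* in the 3 Control and 3 NJT-2 libraries, where symbols mark the replicate number, horizontal lines the group means and vertical lines the mean ± SD. In every panel the NJT-2 libraries lie above the Control libraries and NJT-2 replicate 2 is the lowest of its group, and the open circle of *Plin5* is Control replicate 1 with 0 reads, drawn at its limit of 0.0247 FPKM.

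A gene was called where the adjusted p was under 0.05 and the absolute log2 fold change over 1. *Pnpla2*, *Lipe* and *Plin4* were called higher, which is 3 of the 4 genes, where 0.567% of the tested genes (21 of 3705) were called higher. Under DESeq2 these 3 were called higher as well, where 4.4% of genes were. *Plin5*, which entered the test only through its NJT-2 libraries, is left out of this reading. By log2 fold change *Lipe* stood at place 21, *Pnpla2* at 25 and *Plin4* at 50 of the 3705 genes, and 1.38% of genes had a log2 fold change over 3. The absence of overlap between groups is a weaker mark, since 14.5% of all tested genes were higher in NJT-2 without overlap.

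The 3 calls in edgeR were narrow, and which library was left out decided them. Without NJT-2 replicate 2 the adjusted p of *Pnpla2* was 0.0213, of *Lipe* 0.0204 and of *Plin4* 0.0213. Without Control replicate 1, 2 or 3, or NJT-2 replicate 1 or 3, *Pnpla2* had an adjusted p of 0.0902, 0.3, 0.0851, 0.11 and 0.104 in edgeR, and 0 of the 4 genes were called in each of these 5 fits. The fold changes moved less, with log2 values from 3.62 to 4.37 for *Pnpla2*, 3.81 to 4.66 for *Lipe*, 2.84 to 3.47 for *Plin4* and 4.44 to 5.43 for *Plin5* when 1 library was left out. Over every alternative run the adjusted p ranged from 1.21e-10 to 0.3 for *Pnpla2*, 3.54e-10 to 0.3 for *Lipe*, 1.01e-07 to 0.3 for *Plin4* and 8.2e-05 to 0.4 for *Plin5*, over edgeR, DESeq2 and limma. *Lipe* and *Plin4* also lost their calls, at adjusted p of 0.0576 and 0.0695, when each library's trend with gene length was taken out in edgeR.

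**Figure D2:**
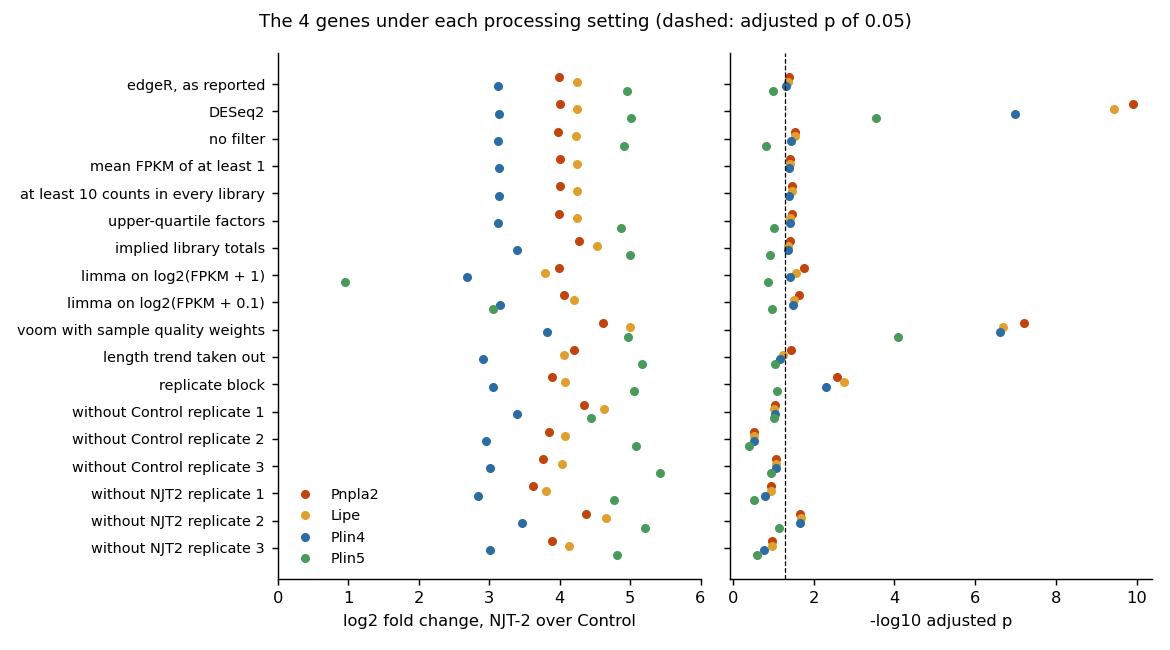
The log2 fold change (left, NJT-2 over Control) and -log10 adjusted p (right) of the 4 genes under each processing setting, with a dashed line at an adjusted p of 0.05. The fold changes of *Pnpla2*, *Lipe* and *Plin4* keep to 2.68 and above in every setting while their adjusted p crosses the line, and *Plin5* is at 0.95 on log2(FPKM + 1), where the added 1 exceeds its level in Control.

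Replicate 2 of NJT-2 was the lowest library of its group for all 4 genes. Over the Control mean, *Pnpla2* was 28.2-, 7.31- and 22.4-fold higher in NJT-2 replicates 1, 2 and 3, and *Lipe* was 35.4-, 7.12- and 26.9-fold higher. *Plin4* was 14.4-, 4.54- and 12.4-fold higher, and *Plin5* 41.7-, 18- and 41-fold. *Pnpla2*, *Lipe* and *Plin4* therefore kept the same order of libraries, NJT-2 replicate 1 over 3 over 2 over all Control libraries, which 5.16% of the tested genes share. This order was noticed after the values had been seen. *Plin5* is left out of it, since its 188 and 182 reads in NJT-2 replicates 1 and 3 are too close to order. It also entered the test only through its NJT-2 libraries.

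Adipocyte markers were also low in replicate 2. Its *Pnpla2* level was 28.9% of the mean of replicates 1 and 3, that of *Lipe* 22.9%, that of *Plin4* 33.9% and that of *Plin5* 43.5%. The summed adipocyte markers stood at 30.1%, and single ones ran from 6.76% (*Acsl1*) to 48.4% (*Cd36*). Summed macrophage markers stood at 60.7%, fibroblast markers at 94.2% and endothelial markers at 173%. The median over all tested genes was 84.7% and the 5th percentile 29.2%. The coefficient of variation over the NJT-2 libraries was 55.9% for *Pnpla2*, 62.7% for *Lipe*, 49.8% for *Plin4* and 40.8% for *Plin5*, where that of *Pnpla2*, *Lipe* and *Plin4* in Control was 15.2%, 16.8% and 10.1%.

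**Figure D3:**
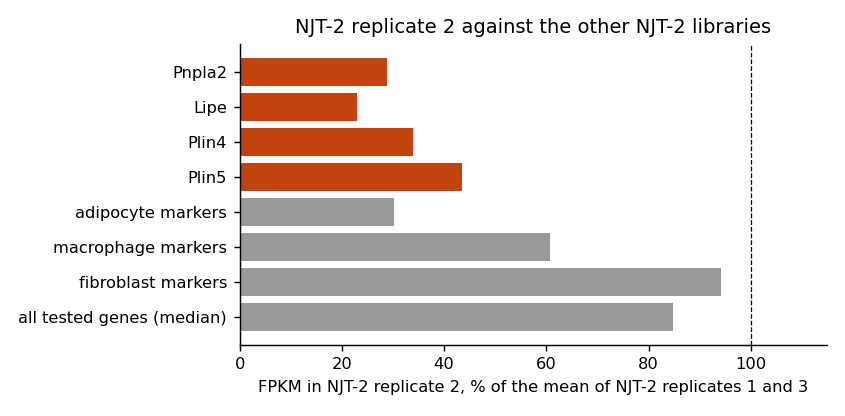
FPKM in NJT-2 replicate 2 as a percentage of the mean of NJT-2 replicates 1 and 3 (dashed line, 100%), for the 4 genes (orange) and for summed marker lists and the median of all tested genes (grey). The bars of *Pnpla2* (28.9%), *Lipe* (22.9%) and *Plin4* (33.9%) end near that of the summed adipocyte markers (30.1%), and fibroblast markers (94.2%) come close to the line.

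Adipocyte markers were higher in NJT-2 as well. Of the 17 adipocyte markers listed, 8 are in the table. Of these 8, *Adipoq*, *Slc2a4* and *Retn* averaged under 0.5 FPKM in Control and passed the filter on low values only through the NJT-2 libraries. They are left out of the reading of calls, though *Adipoq* was called higher. Of the others, *Cd36* and *Gpd1* were called higher, where 0.567% of all tested genes were. *Pnpla2* was 22.9%, 24% and 20.1% of the summed FPKM of the 8 markers in Control and 35.2%, 33.6% and 34.8% in NJT-2. *Lipe* was 3.49%, 3.3% and 3.14% of this sum in Control and 6.56%, 4.86% and 6.21% in NJT-2. Both lipases were higher against this sum in every NJT-2 library, while *Plin4*, at 2.32%, 2.42% and 2.69% in Control and 1.98%, 2.31% and 2.14% in NJT-2, was lower in every one, by as little as 2.31% against 2.32%. The marker sum in Control is mostly *Lpl*, which had 78.79, 55.14 and 55.62 FPKM there, and the direction turns with the marker chosen. The log2 fold change of 5 of the 8 markers, from 5.24 (*Acsl1*) to 8.08 (*Cd36*), was above those of all 4 genes, that of the other 3 (*Lpl*, *Pparg* and *Retn*) was below them, and the median of the 8 was 5.5. Against *Adipoq*, the adipokine adiponectin, the FPKM of *Pnpla2* was 49.1-, 31.2- and 36.6-fold in Control and 7.1-, 5.4- and 6.24-fold in NJT-2, lower in every NJT-2 library. The part of adipocyte number in the rise of the 4 genes was not tested.

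Markers of other cells were checked in the same way. Of 15 macrophage markers, 6 are in the table, with a summed FPKM from 9.74 to 13.1 in Control and from 32.7 to 61.1 in NJT-2. Of the 5 tested, 1, *Adgre1*, was called higher (0.567% over all tested genes), while *Csf1r* had a log2 fold change of 0.025. Among the 5, *Mertk* and *Fcgr1* averaged under 0.5 FPKM in Control and passed the filter on low values only through the NJT-2 libraries. *Fcgr1* and *Cd163* had 0 reads in Control replicate 1. Of 16 preadipocyte and fibroblast markers, 6 are in the table and 1, *Pi16*, was called lower (0.135% over all tested genes). The sums of these 6 markers overlapped, from 227.9 to 999.9 in Control and from 444.6 to 489.5 in NJT-2. The 3 endothelial markers in the table summed to between 0.45 and 2.18 FPKM in Control and 1.34 and 2.46 in NJT-2, and the 7 skeletal muscle markers listed are outside the genes analysed. Their part in the values of *Pnpla2*, *Lipe*, *Plin4* and *Plin5* was not tested.

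The levels of the 4 genes had 1 order in all 6 libraries, with *Pnpla2* over *Lipe* over *Plin4* over *Plin5* per unit of length. *Pnpla2* made up between 77.3% and 82.1% of the summed FPKM of the 4 genes in each library. The nearest neighbours in this order were *Lipe* and *Plin4* in Control, where *Lipe* exceeded *Plin4* 1.51-, 1.36- and 1.16-fold within the 3 libraries. In NJT-2 this gap was wider, with *Lipe* over *Plin4* at 3.31-, 2.11- and 2.91-fold.

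Whether the 4 genes rose by different amounts was tested on the log2 ratio of FPKM of each pair within a library, a measure free of library depth. The ratio between the lipases differed least, with *Pnpla2* over *Lipe* at 2.75 ± 0.10 in Control and 2.57 ± 0.20 in NJT-2 (SD, n = 3 each; exact permutation p = 0.3, 2-sided), and the Control and NJT-2 values overlapped. Against *Plin4*, both lipases stood higher in every NJT-2 library than in any Control library. The log2 ratio of *Pnpla2* over *Plin4* went from 3.17 ± 0.24 to 4.01 ± 0.14, a difference of 0.84, and that of *Lipe* over *Plin4* from 0.42 ± 0.19 to 1.45 ± 0.34, a difference of 1.03, each without overlap and with an exact permutation p of 0.1. With 3 libraries against 3, 0.1 is the smallest p this test can give, and over the 6 pairs the adjusted exact p was 0.2, so the difference is not past a threshold of 0.05.

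The *Plin5* ratios rest on few reads. *Plin4* over *Plin5* had a log2 ratio of 5.61 ± 0.60 in Control and 4.14 ± 0.22 in NJT-2, a difference of -1.47 without overlap (exact permutation p = 0.1, adjusted over 6 pairs 0.2). *Pnpla2* and *Lipe* over *Plin5* differed by -0.62 and -0.44 with overlap (exact permutation p = 0.3 and 0.5). Control replicate 1 enters with *Plin5* at its limit of 3 reads, and with 0.1 added to every FPKM the 3 differences turn to 0.11, 1.02 and 1.15, as 0.1 exceeds every Control level of *Plin5*.

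**Figure D4:**
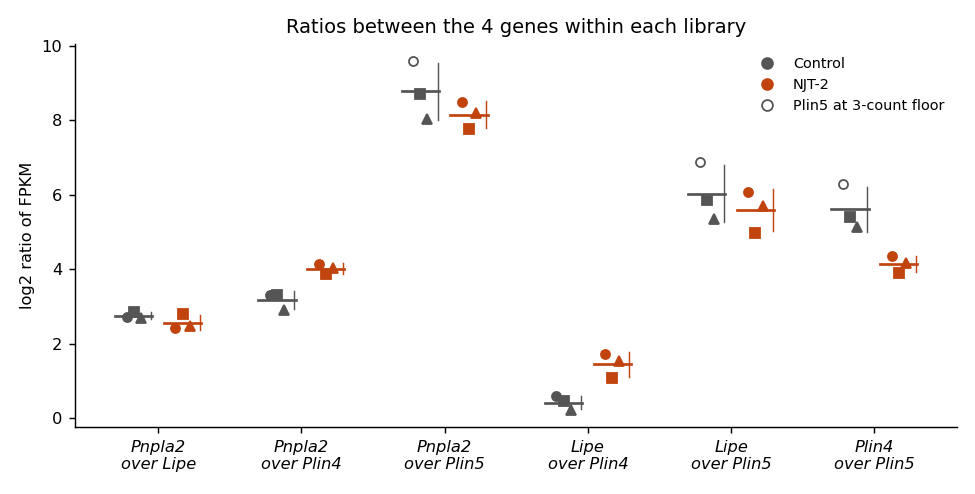
The log2 ratio of FPKM for the 6 pairs of genes in each Control (grey) and NJT-2 (orange) library, where horizontal lines are group means, vertical lines the mean ± SD, and circles, squares and triangles replicates 1, 2 and 3. The groups separate for *Pnpla2* over *Plin4*, *Lipe* over *Plin4* and *Plin4* over *Plin5*, and overlap for the other pairs, and open circles hold *Plin5* at its limit of 3 reads.

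Other genes of lipolysis and the droplet were taken from a list of 101 names by known role, of which 41 are in the table and 37 were tested. In edgeR, 4 of the 37 were called higher (*Pnpla2*, *Lipe*, *Plin4* and *Lpin1*) and 0 lower, where 0.567% of all tested genes were called higher and 0.135% lower. None of the 37 was lower at an unadjusted p under 0.05 in edgeR (9.72% of all tested genes) or called lower by DESeq2 (3.4% of all). The median log2 fold change was 0.83 against 0.02 over all tested genes. Without *Pnpla2*, *Lipe*, *Plin4* and *Plin5*, 33 genes remained, with 1 called, 27 with a fitted value above 0 (50.8% over all tested genes) and a median of 0.63. *Plin5*, among the 37, and *Mettl7b*, among both the 37 and the 33, averaged 0.03 and 0.21 FPKM in Control. Both passed the filter on low values only through the NJT-2 libraries, which raises the share above 0 and the medians by selection. The 4 calls fell to 0 without Control replicate 1, 2 or 3 or NJT-2 replicate 1 or 3 and rose to 8 without NJT-2 replicate 2.

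Among lipases and their regulators, 2 of 5 tested genes were called higher (0.567% over all tested genes), and these were *Pnpla2* and *Lipe* themselves. *G0s2*, the inhibitor that binds adipose triglyceride lipase, had 3.88, 4.27 and 3.31 FPKM in Control and 157.15, 16.33 and 124.34 in NJT-2, a log2 fold change of 4.44 (SE 0.81) at an edgeR adjusted p of 0.0644. The lipase gene and the gene of its inhibitor were both higher without overlap, as 14.5% of all tested genes were, with *G0s2* outside the threshold. *Lpl*, which takes fatty acids from circulating lipoproteins, had a log2 fold change of 2.04 (SE 0.65, edgeR adjusted p = 0.2), and *Lipa*, the lysosomal acid lipase, 0.31 (adjusted p = 0.546).

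Of 12 genes for droplet coats and droplet proteins in the table, 9 were tested. Of these, 1 was called higher (0.567% over all tested genes), which was *Plin4* itself. *Plin3*, the perilipin found in many tissues, had 6.11, 11.5 and 11.6 FPKM in Control and 13.6, 9.69 and 13.8 in NJT-2, and its log2 fold change of 0.21 (SE 0.29, edgeR adjusted p = 0.688) is far from those of *Plin4* and *Plin5*. *Cav1*, the caveolar coat protein that also reaches droplets, had 3.64 (SE 0.79, adjusted p = 0.102), *Mettl7b* 2.55 (adjusted p = 0.201), and *Cavin1* -0.30 (adjusted p = 0.668). *Cidea*, a droplet fusion protein of brown and beige fat, was not tested and had 0, 0 and 0 reads in Control and 9, 4 and 0 in NJT-2.

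In triglyceride and phospholipid synthesis, 1 of 5 tested genes was called higher (0.567% over all tested genes). *Lpin1*, the phosphatidate phosphatase that makes the diglyceride for new triglyceride, had 1.09, 1.89 and 2.81 FPKM in Control and 24.05, 11.20 and 19.42 in NJT-2, a log2 fold change of 3.12 (SE 0.40, edgeR adjusted p = 0.027). *Acsl1*, which activates fatty acids with coenzyme A, went from a mean of 2.34 to 95.4 FPKM, with 9.36 in NJT-2 replicate 2, and missed the threshold at 5.24 (SE 1.0, edgeR adjusted p = 0.0775). *Dgat1*, which completes the triglyceride, had 0.99 (adjusted p = 0.462).

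Signalling genes act upstream of the lipases. Of 15 receptor, cyclic AMP and insulin signalling genes, 0 were called by edgeR, with 2 at an unadjusted p under 0.05 (17.8% over all tested genes) and 2 called by DESeq2 (7.8% over all, both directions), and their median log2 fold change was 0.59. *Prkar2b*, a regulatory subunit of protein kinase A, had 2.73 (SE 0.66, edgeR adjusted p = 0.134) and *Insr*, the insulin receptor, 1.42 (SE 0.34, adjusted p = 0.134), both without overlap. *Prkaca*, the catalytic subunit that acts on hormone-sensitive lipase and perilipin, had 0.13 (adjusted p = 0.833). Of the transcription factors, *Pparg* had 1.06, 5.68 and 6.41 FPKM in Control and 37.26, 13.01 and 33.71 in NJT-2, a log2 fold change of 2.62 (SE 0.61, edgeR adjusted p = 0.119). Its partner *Rxra* was at 0.005 (adjusted p = 0.995), and *Ppara*, under the filter, had 0, 12 and 23 reads in Control and 416, 85 and 255 in NJT-2.

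**Figure D5:**
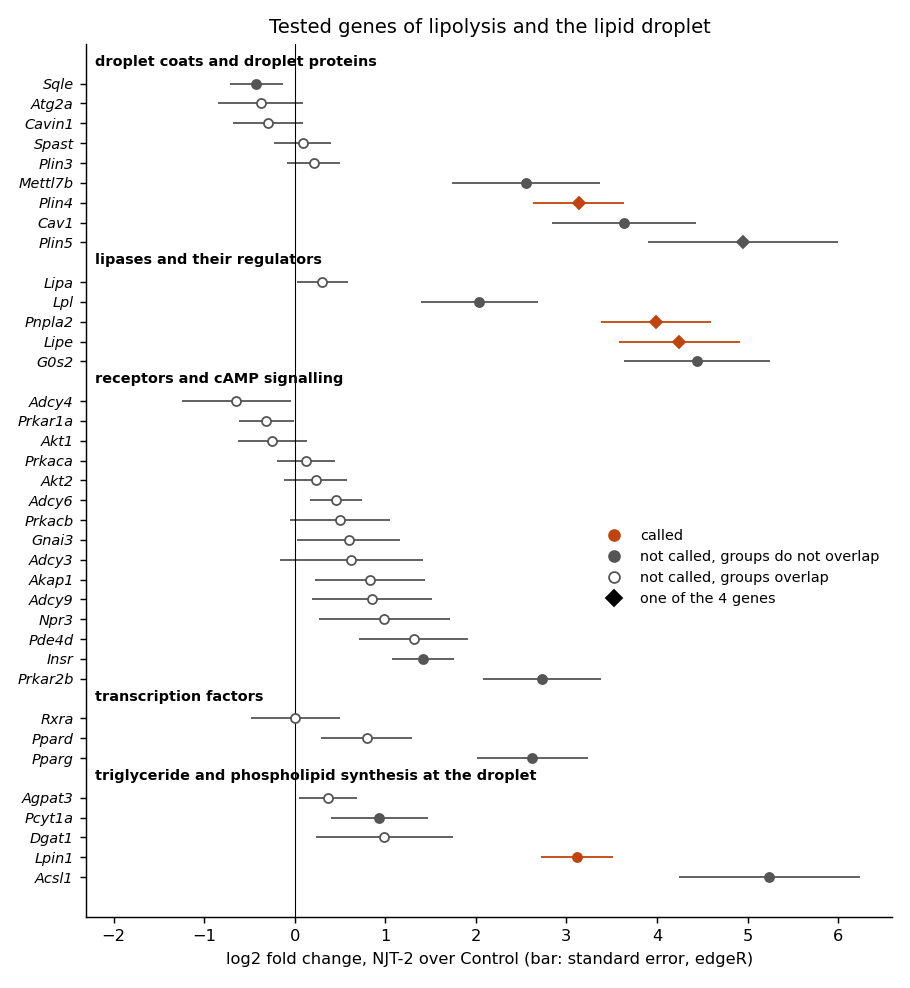
The log2 fold change (NJT-2 over Control, bars are the edgeR standard error) of the 37 tested genes of lipolysis and the lipid droplet by role, with called genes in orange, other genes filled where groups do not overlap and open where they do, and diamonds for *Pnpla2*, *Lipe*, *Plin4* and *Plin5*. The 4 called genes lie at 3.12 and above, and the receptor, cyclic AMP and insulin signalling genes have a median of 0.59.

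The KEGG pathway for regulation of lipolysis in adipocytes, as written in the deposited annotation, had 18 genes in the table and 16 tested. The 2 called higher (0.567% over all tested genes) were *Pnpla2* and *Lipe* themselves. Of the other 14 genes, 0 were called by edgeR, 1 had an unadjusted p under 0.05 (17.8% over all tested genes) and 1, *Insr*, was called by DESeq2 (7.8% over all), and their median log2 fold change was 0.46 against 0.02 over all tested genes.

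The genes most like each of the 4 were sought by the root mean square difference of mean-centred log2(FPKM + 1) over the 6 libraries. For *Pnpla2* the nearest were *Ephx2* (0.224), *Aldh1a7* (0.273), *G0s2* (0.434), *Gpd1* (0.483) and *Adipoq* (0.526), where the median over all tested genes was 2.08. For *Lipe* they were *Ephx2* (0.197), *Aldh1a7* (0.288), *G0s2* (0.347), *Gpd1* (0.426) and *Coro6* (0.519), with 4 of the 5 shared with *Pnpla2*. *Pnpla2* and *Lipe* were nearer to each other, at 0.146, than to any other tested gene. *Ephx2*, a soluble epoxide hydrolase, had 3.55, 3.34 and 2.93 FPKM in Control and 144.84, 22.82 and 107.25 in NJT-2.

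*Plin4* had mostly other neighbours in pattern, with *Coro6* shared with *Lipe*. The nearest were *Echdc1* (0.126), *Adgre1* (0.251), *Coro6* (0.252), *Pcx* (0.29) and *Mlxipl* (0.294), against a median of 1.43 over all tested genes. Their log2 fold changes ran from 2.17 (*Pcx*) to 4.71 (*Coro6*), with *Plin4* at 3.13, and the added 1 also flattens low levels here. *Pcx* is pyruvate carboxylase, which feeds oxaloacetate to fatty acid and glycerol synthesis, and *Mlxipl* encodes the carbohydrate-response factor ChREBP. For *Plin5* the nearest were *Qdpr* (0.114), *Derl1* (0.132), *Osr2* (0.144), *Slc13a3* (0.15) and *Grpel2* (0.151), where the median was 0.639, since the added 1 flattens a gene of so low a level. All these values share the same 6 libraries and are descriptions.

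Genes around the 4 loci were compared as well. Within 100 kb there are 18 other genes in the table, of which 17 were tested, and 0 had an edgeR adjusted p under 0.05, with 5 at an unadjusted p under 0.05, where 17.8% of all tested genes were, and 1, *Rplp2*, called by DESeq2, where 7.8% were. Fitted values were above 0 for 5 (50.8% over all tested genes) and below 0 for 12. They ran from -3.02 for *Rplp2*, 3612 bp from *Pnpla2*, to 0.83 for *Slc25a22*. None was higher in NJT-2 without overlap (14.5% over all tested genes), and 4 were lower without overlap (11.6% over all). *Sema6b*, the tested gene next to *Plin5* on the side away from *Plin4*, had a log2 fold change of 0.42 (edgeR adjusted p = 0.776).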

How the data were processed

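Polyadenylated RNA of 6 libraries was sequenced as paired reads from a stranded (dUTP) library. Per the labels, cutadapt 1.9, HISAT2 2.2.1, StringTie 2.1.6, DESeq2 and edgeR were used with GRCm38, and the counting tool, annotation release and use of strand are not given in the sources used here. The authors deposited 1 table with raw read counts per gene, not normalized, and FPKM values made from these counts. FPKM recomputed from the counts matched the deposited value within 2% for 100% of values of at least 1. Of the lines read here, 4864 were complete and the last 1, incomplete, was left out. Genes outside them were not analysed here. The analysed genes hold 27.7% to 32.5% of the implied library totals, so a gene outside them may still be among the authors' data. Genes said to be in the table are among these 4864. Columns of the authors' own comparisons were not used.

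Sample titles gave the group and the replicate number. Counts were tested in R 4.3.3 with edgeR 4.0.16 (TMM, quasi-likelihood test, group only) over the 3705 genes that reached 0.5 FPKM on average, with Benjamini-Hochberg adjustment over all of them. The common biological coefficient of variation was 0.504, so for genes with many reads the spread between libraries set the precision, and for *Plin5* the few Control reads limit it too. Alternatives were DESeq2 1.42.0, limma 3.58.1 on log2(FPKM + 1) and log2(FPKM + 0.1), voom with sample quality weights, other filters and factors, implied library totals, an offset for gene length, a replicate block and leaving out each library. Scripts were tested on simulated data. The closest libraries, NJT-2 replicates 1 and 3, differed by a chi-square of 56.7 per gene, above counting noise, and were kept as 2 libraries. The other pairs within a group had 458 to 1970, and whether the close pair shares a culture was not tested. Pair ratios were tested by exact permutation over 20 labelings.

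The 4 genes and the lists were chosen with earlier results of these data known. Named beside them are, from the lists, called genes, then genes without overlap by fold change, then by level, genes within 100 kb, and the 5 genes nearest in pattern. *Prkaca*, *Rxra*, *Lipa*, *Dgat1*, *Cidea*, *Ppara* and single markers were named for their roles after their values were seen. Protein sequences were not used here.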

Additional observations from a re-analysis of the deposited data

How the results depend on the processing

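*Pnpla2*, *Lipe*, *Plin4* and *Plin5* had a log2 fold change above 0 under each of the alternatives run. *Pnpla2* was called in 12 of 17 alternatives, *Lipe* and *Plin4* in 11 of 17 and *Plin5* in 2 of 15, as *Plin5* does not pass a mean FPKM of at least 1 or 10 counts in every library. Leaving out 1 library gave log2 fold changes of 3.62 to 4.37, 3.81 to 4.66, 2.84 to 3.47 and 4.44 to 5.43 for the 4 genes, and 0 to 3 of them called. With the length trend taken out, *Lipe* (4.06) and *Plin4* (2.92) lost their calls and 1 of the 4 was called. *Plin5* was called under DESeq2 (5.02) and under voom with quality weights (4.97). Counting on implied library totals in place of TMM shifts the median of all genes (TMM minus totals, -0.14 log2), and the 4 genes were then at 4.27, 4.53, 3.39 and 5.00.

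The number of calls changed more. On the list of lipolysis and droplet genes, 4 calls became 12 under DESeq2 and 18 under voom, and 0 to 8 with 1 library left out. The 2 calls of the KEGG pathway became 6 under voom, 1 without the length trend, and 0 to 2 with 1 library left out. Over all genes, the 21 higher calls became 163 under DESeq2, 392 under voom, 32 without the length trend, and 0 to 56 with 1 library left out. The 5 lower calls became 126 under DESeq2, 335 under voom, 9 with no filter, with at least 10 counts in every library and with upper-quartile factors, 8 at a mean FPKM of at least 1 and without the length trend, 10 under limma with either pseudocount, and 0 to 19 with 1 library left out. The cause was not tested.

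Replicate numbers are shared by the groups, and the labels do not say what a number marks. Deviations of same-numbered libraries correlated at 0.193, -0.023 and -0.198, and those of the other pairs lay between -0.233 and 0.228. With so few libraries these values cannot decide whether the numbers pair them. With a replicate block the log2 fold changes were 3.89, 4.08, 3.05 and 5.05 (edgeR adjusted p 0.00267, 0.00179, 0.00495 and 0.0808), 7 list genes were called, and 43 genes were called higher and 14 lower.

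The log2 ratio differences ran, with 1 library left out, from -0.3 to -0.11 for *Pnpla2* over *Lipe*, 0.71 to 0.92 for *Pnpla2* over *Plin4*, 0.89 to 1.21 for *Lipe* over *Plin4*, -0.99 to -0.22 for *Pnpla2* over *Plin5*, -0.77 to -0.02 for *Lipe* over *Plin5* and -1.7 to -1.13 for *Plin4* over *Plin5*. With a pseudocount of 0.1 the last 3 reversed to 1.02, 1.15 and 0.11. On CPM the differences are the same by construction. Of the 4 genes, low counts limit *Plin5*, at up to 8 reads per Control library.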
